A study of Mus musculus with 6 samples.

Results

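A set of 9 genes used as markers of immature and repair Schwann cells (SCs) was followed in P4 sciatic nerves: *Gap43*, *Ncam1*, *L1cam*, *Gfap*, *Olig1*, *Runx2*, *Sox4*, *Sox11* and *Ucn2*. They were chosen by name with earlier results of these data known, so counts over the set are no independent evidence. All 9 were found among the 59485 genes of the deposited table. The series holds 3 control libraries, labelled wild-type, and 3 mutant libraries of the genotype Ht-PA-Cre; Adar1fl/fl;R26R, each from the sciatic nerves of 1 animal at postnatal day 4. The paper's methods define wild-type as Adar1fl/fl;R26R or Adar1fl/+;R26R, with no Cre named. Thus the floxed alleles and R26R are not particular to the mutants, and the genotypes also differ in Cre. In the mutants, the Ht-PA (human tissue plasminogen) promoter drives Cre, which removes the floxed alleles of *Adar* (the gene of the RNA-editing enzyme ADAR1) in neural crest (NC) cells from early embryonic life on, and R26R is a YFP tracer of these cells. Endothelial cells, blood cells and other cells of the nerve that do not derive from the NC keep both alleles, so each library is a mixture.

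Immature SCs are the precursor-derived glia of the embryonic nerve, and they become either myelinating or non-myelinating SCs around birth. They carry adhesion molecules such as NCAM and L1, the growth-associated protein GAP-43 and low levels of the filament protein GFAP, all of which are lost as a cell starts to myelinate and kept in non-myelinating SCs. After nerve injury, SCs of adult nerves leave the myelinating state, express these molecules again and turn on genes that are not seen in development, *Olig1* and *Shh* among them. Such cells are called repair SCs, and *Runx2* is among the transcripts that rise in them after nerve cut.

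Reads had been counted on constitutive regions of each gene by the authors and divided by a DESeq2 size factor per library, and the normalized read counts below are those values. Between 50938349 and 78250094 reads per library lay on genes. Differences were tested with limma on log2(value + 1) for the 25802 genes whose mean reached 10 in either genotype. The threshold was an unadjusted p of 0.05 or less together with a 2-fold change or more, and p-values were adjusted by Benjamini-Hochberg over these genes. The targeted gene *Adar* (GSMG0024553, chromosome 3, 89715022 to 89753454, mm10) had values of 1602, 2066 and 1133 in control replicates 1, 2 and 3, and 11768, 9311 and 9773 in the mutants. This rise goes against the deletion given in the labels, and the single value per gene does not separate the floxed segment from the rest. For this reason the text speaks of mutant-labelled and control-labelled libraries, and every direction below is drawn from the labels. Values follow the order of replicates 1, 2 and 3 of a genotype. Of 8 tested SC lineage markers, 4 were past the threshold and lower, none was higher and 4 did not pass it, *Cdh19* (log2 fold change 0.13) and *Foxd3* (-0.38, overlapping genotypes) among the latter. *S100b*, a glial calcium-binding protein gene, fell from 8163, 8042 and 8379 to 1535, 686 and 887 (limma adjusted p = 6.05e-05), and *Erbb3*, the gene of the neuregulin receptor of SCs, from 9161, 10842 and 11041 to 4207, 2648 and 3912 (limma adjusted p = 0.000296).

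Of the 9 marker genes, 8 had enough reads to be tested. *Ucn2*, *Runx2*, *Gfap* and *Gap43* rose past the threshold in mutant-labelled libraries, whereas *Sox4*, *Ncam1*, *Sox11* and *L1cam* stayed under a 2-fold change. *Olig1* was almost without reads in both genotypes. Thus 4 of 8 tested markers were past the threshold and higher, where 13.9% of all tested genes were, and none was past it and lower, where 10.4% of all genes were (24.2% in either direction). The adjusted p of all 4 was 0.05 or less as well, where 19.9% of all genes passed both limits, and with *Sox4* 5 of 8 had such a p at any size of change, where 35% of all genes did. The log2 fold change was above 0 in 7 of the 8, where 51.6% of all genes had one above 0. The median log2 fold change of the 8 genes was 0.72, and that of all tested genes was 0.03. The shares of 13.9% higher and 10.4% lower are also the background of the list counts below. In bulk nerve, more cells of a type and more RNA per cell cannot be told apart. *Gap43*, *Runx2* and *Ucn2* also stand on a list of injury-related genes that the study drew from calls on these samples, so their rise here is no independent evidence.

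**Figure D1:**
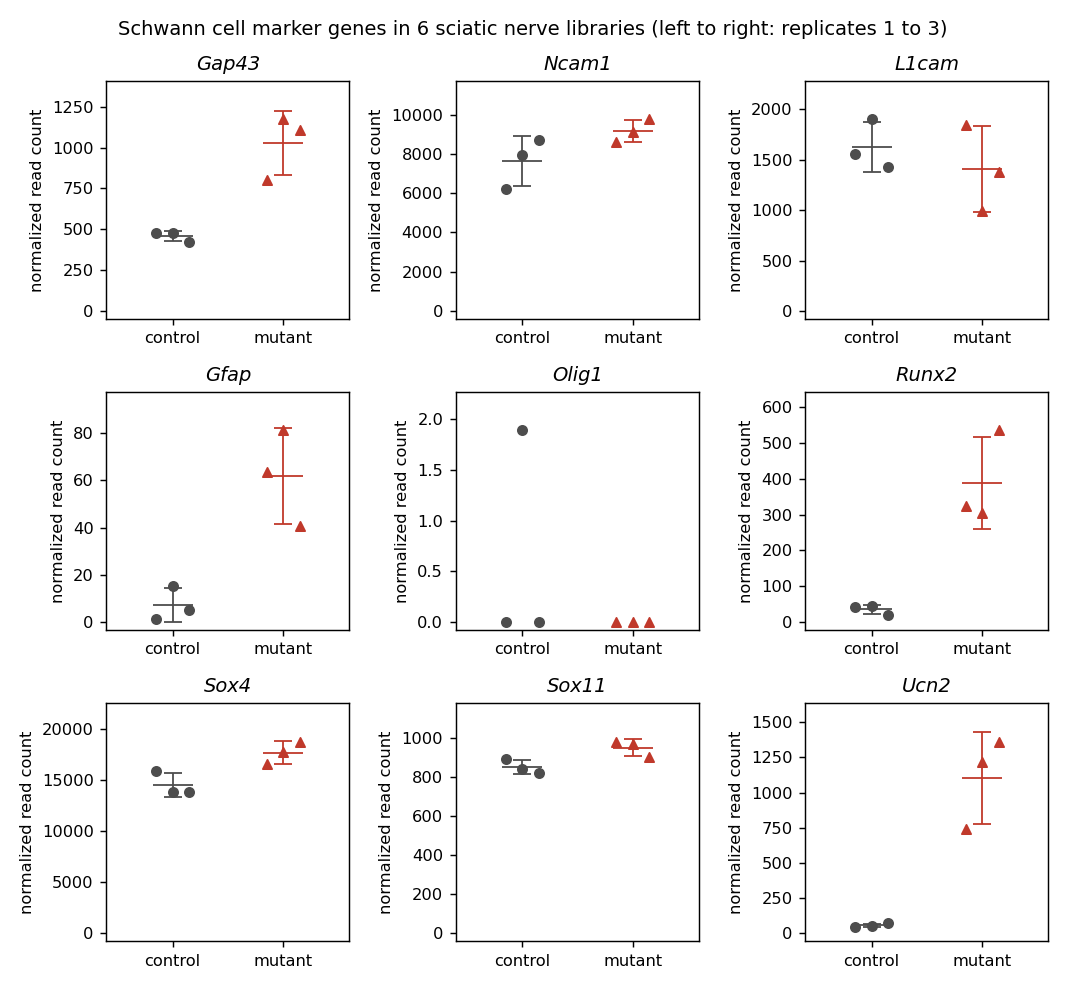
Normalized read count (y axis, linear, one scale per panel) of each marker gene in the 3 control-labelled (circles) and 3 mutant-labelled (triangles) libraries, replicates 1 to 3 from left to right. Bars give the mean and SD of each genotype, left out for *Olig1*. The mutant-labelled points of *Ucn2*, *Runx2*, *Gfap* and *Gap43* lie well above the controls, whereas those of *Ncam1* and *L1cam* overlap with them.

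*Ucn2* (GSMG0040111, chromosome 9, 108986163 to 108987164, plus strand) encodes urocortin 2, a secreted peptide of the corticotropin-releasing factor (CRF) family that acts on the receptor CRHR2. Its normalized read counts were 46.6, 49.1 and 71 in the control-labelled libraries, against 738, 1215 and 1362 in the mutant-labelled. The lowest mutant-labelled library was thus over 10 times the highest control. Urocortin 2 transcripts rose from 55.6 ± 13.4 to 1105.0 ± 326 (SD, n = 3 each), with log2 fold change 4.27 (SE 0.29, limma adjusted p = 2.54e-05). Only 2.03% of the tested genes had a larger log2 fold change.

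The other genes of the CRF system had few reads. *Ucn3* and the receptor gene *Crhr1* had no read in any library, which allows up to 3 reads in each. *Ucn* had reads in mutant-labelled replicate 1 alone, at 4.36, and *Crh*, the gene of CRF itself, in control-labelled replicate 2 alone, at 7.56. *Crhr2*, the gene of the urocortin 2 receptor, was at 0, 0 and 15.2 in the controls and at 8.73, 101 and 59.3 in the mutant-labelled libraries. The genotypes overlapped, though *Crhr2* was past the threshold at a log2 fold change of 3.95 (SE 1.33, limma adjusted p = 0.0489). *Crhbp*, which encodes a binding protein that holds CRF and urocortin, was at 4.44, 7.56 and 0 and rose to 102, 28.9 and 103 (4.25, adjusted p = 0.00921, limma). These are the 2 genes of the 6 in this list that could be tested. Only 1 of them was past the threshold without control replicate 1 or 2, or without mutant replicate 2 or 3.

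*Runx2* (GSMG0017565, chromosome 17, 44495987 to 44814797, minus strand) encodes a transcription factor of the Runt family, best known as a regulator of bone formation. It was at 41.1, 44.4 and 20.3 in the control-labelled libraries against 324, 304 and 535 in the mutant-labelled, so the genotypes lay far apart and replicate 3 was the highest. *Runx2* rose from 35.3 ± 13.1 to 388 ± 128 (SD, n = 3 each), with log2 fold change 3.45 (SE 0.39, limma adjusted p = 0.000324). A larger log2 fold change was found in 3.83% of the tested genes. *Supt3*, on the other strand, overlaps *Runx2* and was at 684 to 885 in the controls and at 1300 to 1440 in mutant-labelled libraries. A further 7 listed genes without a symbol overlap it too, the highest of them at 2.83 to 21.5 and at 101 to 141. The libraries were oriented, but it is not stated whether strand was used in counting, so reads of overlapping genes may be mixed.

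The promoter of *Runx2* is shown because RUNX2 is known to bind its own upstream region. The 250 bases before the RefSeq start (RefSeq, GRCm38.p6, the assembly of mm10, chr17:44814628-44814877, minus strand) hold 1 match to the RUNX motif TGTGGT on the other strand, in capitals, which ends 74 bases before the start. The *Runx2* entry of the deposited table begins further upstream, so part of this window lies within it.
Runx2: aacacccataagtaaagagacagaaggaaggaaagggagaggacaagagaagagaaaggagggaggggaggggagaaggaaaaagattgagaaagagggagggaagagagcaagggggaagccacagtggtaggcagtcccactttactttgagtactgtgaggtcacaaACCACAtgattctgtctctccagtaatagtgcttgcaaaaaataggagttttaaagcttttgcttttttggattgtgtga
A match to these letters, on either strand, was found in 14% of the 32851 RefSeq promoter windows of this length. No match was found in the *Runx2* window to the AP-1 motif TGANTCA (in 6.75% of windows), the interferon-stimulated response element (2.98%) or the gamma-activated sequence TTCNNNGAA (7.02%), searched on both strands. The matches describe the letters only, and binding was not measured.

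The paralogs *Runx1* and *Runx3* rose as well. *Runx3* went from 35.5, 40.6 and 68.4 in the controls to 228, 228 and 154 in mutant-labelled libraries (log2 fold change 2.09, adjusted p = 0.00265, limma), and *Runx1* from 112, 164 and 143 to 426, 387 and 525 (1.67, adjusted p = 0.00087, limma). *Cbfb*, which encodes the shared partner of all RUNX proteins, had a log2 fold change of 0.26 with an adjusted p of 0.0669, and its 3 mutant-labelled values lay above the controls. In the list of 6 RUNX relatives and partners, 2 genes were past the threshold, both higher, where 13.9% of all tested genes were higher. The median log2 fold change of the list was 0.55.

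Markers of other cells that express RUNX genes were read beside these values. The summed level of 8 bone and cartilage genes ranged from 10635 to 13384 in the controls and from 1261 to 1908 in mutant-labelled libraries. The cartilage collagen gene *Col2a1* alone set this difference, and the other 7 genes summed to 1142 to 1630 and to 1167 to 1670, which overlap. The osteoblast genes *Sp7* and *Alpl* had genotypes apart in opposite directions, *Sp7* at 76.6 to 93.5 and at 21.8 to 71.4 and *Alpl* at 744 to 939 and at 990.1 to 1513, neither past the threshold. *Col2a1* and *Col10a1* fell while *Dmp1* was past the threshold and higher (adjusted p = 0.0897, limma), though not without control replicate 2 or 3 or any 1 of the mutant replicates. *Nkg7*, a gene of cytotoxic lymphocytes, which use *Runx3*, went from 0, 1.89 and 5.07 to 69.8, 133 and 67.3. The summed level of 9 macrophage and leukocyte genes lay between 6397 and 8311 in the controls and between 4455 and 5853 in mutant-labelled libraries, where 4 of the 9 passed the threshold upward and 1 downward. The gene that fell, *Csf1r*, set the direction of the sum, and the other 8 genes summed to 2289 to 2802 in the controls and to 3108 to 3566 in mutant-labelled libraries. The part of bone cells or leukocytes in the RUNX values was not tested.

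*Gfap* (GSMG0007463, chromosome 11, 102887337 to 102897200, minus strand) encodes the intermediate filament protein of astrocytes, which is also made by non-myelinating and repair SCs. It was low, with values of 1.11, 15.1 and 5.07 in the control-labelled libraries, that is 1, 16 and 4 reads. In the mutant-labelled libraries the values were 63.3, 81 and 40.6, from 87, 84 and 41 reads. All 3 mutant-labelled values were above the controls, and control replicate 2 was the nearest to them. *Gfap* rose from 7.10 ± 7.22 to 61.6 ± 20.3 (SD, n = 3 each), with log2 fold change 3.35 (SE 0.81, limma adjusted p = 0.013). The size of this change depends on few control reads. It was 2.11 with a pseudocount of 10 in place of 1, 2.61 without control replicate 1 and 4.07 without control replicate 2, and the adjusted p reached 0.0502 without mutant replicate 2.

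The 250 bases before the *Gfap* start are shown beside it for comparison with *Runx2* (RefSeq, GRCm38.p6, chr11:102897201-102897450, minus strand).
Gfap: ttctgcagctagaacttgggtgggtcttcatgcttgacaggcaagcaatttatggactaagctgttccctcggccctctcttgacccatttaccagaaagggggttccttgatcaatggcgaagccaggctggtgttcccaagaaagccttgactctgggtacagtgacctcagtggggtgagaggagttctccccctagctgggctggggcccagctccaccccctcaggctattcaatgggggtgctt
None of the 4 motifs above was matched in it, so no base is in capitals.

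Of the 12 other filament genes in the list, 4 were past the threshold and higher (13.9% of all tested genes) and none lower (10.4%). Their median log2 fold change was 0.63. *Nes*, the gene of nestin, an early glial filament protein, rose from 56777, 62830 and 62737 to 169952, 104741 and 163608 (1.23, adjusted p = 0.00107, limma). *Vim*, the vimentin gene, did not pass it (log2 fold change 0.21, limma adjusted p = 0.152). *Nefm*, the medium neurofilament chain of neurons, rose by 1.38 and *Sync* by 1.14 on the log2 scale, with adjusted p-values of 0.000580 and 0.0257 (limma). *Des*, the filament gene of muscle, rose by 2.33 (adjusted p = 0.00943, limma) and was highest in mutant-labelled replicate 3, at 7340, against 2725 and 1753 in replicates 1 and 2. Only 3 filament genes were past the threshold without control replicate 3.

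Astrocytes also make GFAP. Of 9 genes of astrocytes and oligodendrocytes, 7 could be tested, none was past the threshold and higher, and *Opalin* was lower, at 24.4, 9.45 and 48.2 in the controls and at 0 in all mutant-labelled libraries. *Aldh1l1*, an astrocyte enzyme, was at 343 to 520 in the controls and 287 to 472 in mutant-labelled libraries. The summed level of the 9 genes lay between 6312 and 8081 in the controls and between 9006 and 11957 in mutant-labelled libraries, most of it *Cspg4* and *Gja1*, which nerve fibroblasts and pericytes share. *Slc1a3*, an astrocyte glutamate transporter gene, *Gja1* and *Cspg4* lay above the controls without overlap and under 2-fold, with log2 fold changes of 0.93, 0.81 and 0.31 (limma adjusted p = 0.0794, 0.0321 and 0.088). *Aqp4*, the astrocyte water channel gene, overlapped, at 47.7, 3.78 and 38 and at 121, 36.7 and 181. Without control replicate 1, 2 of these genes were past the threshold and higher, and the part of other glia in the *Gfap* values was not tested.

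*Gap43* (GSMG0015740, chromosome 16, 42248444 to 42340651, minus strand) encodes a membrane-associated protein of growth cones and of immature, non-myelinating and repair SCs. Control-labelled replicates 1, 2 and 3 had 477, 479 and 423 normalized reads, a narrow range, and the mutant-labelled libraries had 804, 1173 and 1109.7. The lowest mutant-labelled library, replicate 1, still lay above all controls. The level went from 459.9 ± 31.8 to 1029 ± 197 (SD, n = 3 each), with log2 fold change 1.14 (SE 0.17, limma adjusted p = 0.00146). This is just above the 2-fold limit, and 17.3% of the tested genes had a larger log2 fold change. The lowest value over all settings was 1.03, once libraries were brought to an equal 75th percentile.

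Other genes linked to growth cones and axon growth moved in both directions. Of 16 tested, 4 were past the threshold and higher (13.9% of all tested genes) and 3 lower (10.4%), with a median log2 fold change of 0.75. At equal library totals 6 were higher and 2 lower, and without any 1 control replicate 5 were higher and 3 lower. *Stmn4* rose by 1.88, *Tubb3* by 1.75 and *Dpysl3* by 1.63 on the log2 scale, with adjusted p-values from limma of 0.0065, 0.000105 and 8.56e-05. The fourth that rose was *Klf6*, which encodes a transcription factor and no growth cone protein (1.31, limma adjusted p = 0.000404). *Dpysl5* was at 219, 355 and 291 in the controls and fell to 32, 52.1 and 11.9 (-3.33, adjusted p = 0.00165, limma), and *Stmn1* (-1.35) and *Dpysl2* (-1.12) fell as well. BASP1 and MARCKS are membrane-associated proteins of growth cones like GAP-43. *Basp1* had a log2 fold change of 0.91 (adjusted p = 0.00104, limma) and *Marcks* one of -0.81 (adjusted p = 0.000373), with all mutant-labelled values on 1 side of the controls in both.

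Neurons also express *Gap43*, *Ncam1* and *L1cam*. Of 15 neuronal markers, 10 were past the threshold and higher (13.9% of all tested genes), *Scn9a* was lower (10.4%) and 4 did not pass it. The median log2 fold change was 1.75. The summed level of the 15 markers ranged from 6364 to 7474 in the controls and from 12408 to 12746 in mutant-labelled libraries. *Tubb3* (means 908 in the controls and 3016 in mutant-labelled libraries) and *Nefm* (807 and 2089) rose most in level. The 4 that did not pass were *Nefl*, *Uchl1*, *Nefh* and *Snap25*, with log2 fold changes of 0.76, 0.45, 0.28 and 0.28. *Scn10a*, a sodium channel gene of sensory neurons, had no read in the controls and values of 7.27, 19.3 and 21.8 in the mutant-labelled libraries. *Isl1* went from 33.3, 5.67 and 2.53 to 42.9, 98.4 and 114, and *Rbfox3* from 0, 15.1 and 2.53 to 29.1, 37.6 and 45.5. The part of neuronal RNA in the rise of *Gap43* was not tested. Without control replicate 3, 9 neuronal markers were past the threshold and higher and none lower. *Tubb3* stands on this list and on that of growth cone genes, and the neurofilament genes on this list and on that of filaments.

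**Figure D2:**
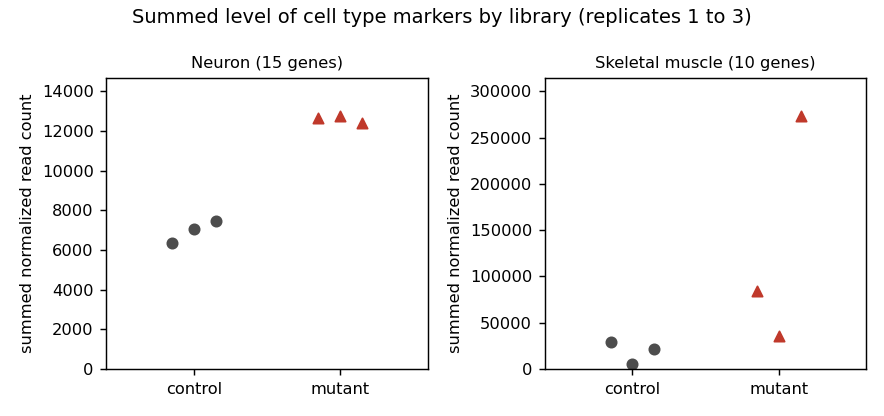
Summed normalized read count (y axis, linear) of the marker genes of neurons and skeletal muscle in the 3 control-labelled (circles) and 3 mutant-labelled (triangles) libraries, replicates 1 to 3 from left to right. Neuronal markers are higher in mutant-labelled libraries, from 12408 to 12746, and muscle markers are highest in mutant-labelled replicate 3.

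*Ncam1* (GSMG0040726, chromosome 9, 49502129 to 49799393, minus strand) encodes the neural cell adhesion molecule, which immature and non-myelinating SCs carry on their surface. Its values were 6211, 7932 and 8726 in the control-labelled libraries against 8620, 9122 and 9754 in the mutant-labelled. The genotypes overlapped through control replicate 3, which lay above mutant-labelled replicate 1. The levels of 7623 ± 1286 and 9165 ± 568 (SD, n = 3 each) gave a log2 fold change of 0.28 (SE 0.13, limma adjusted p = 0.135), with a 95% interval from -0.02 to 0.58. The interval reaches a rise of up to 1.49-fold and does not reach 2-fold.

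*L1cam* (GSMG0042600, chromosome X, 73853780 to 73880834, minus strand) encodes L1, an adhesion molecule of axons and non-myelinating SCs. It had 1559, 1902 and 1426 normalized reads in the control-labelled libraries, against 1848, 996 and 1384 in the mutant-labelled. The mutant-labelled libraries were spread widely, with replicate 1 close to the highest control and replicates 2 and 3 below all controls. The log2 fold change was -0.24 (SE 0.22, limma adjusted p = 0.424), with a 95% interval from -0.75 to 0.26. Without mutant replicate 1 the value was -0.46, and without mutant replicate 2 it was -0.02, so the 2 libraries set its size. The difference was within the spread between libraries.

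In the wider family of immunoglobulin-type adhesion molecules, most genes that passed the threshold were lower. Of 14 tested members, 7 were past the threshold and lower and 3 higher, and the median log2 fold change was -0.80. *Nfasc*, the neurofascin gene of nodes and paranodes, fell from 4961, 5215 and 5600 to 1079, 126 and 342 (-3.86, adjusted p = 0.00194, limma). *Cadm2* fell by 2.21 and *Cntn1* by 1.79 on the log2 scale, with adjusted p-values of 0.00397 and 0.000979. *Cntn2* rose from 0, 0 and 5.07 to 21.8, 13.5 and 17.8 (limma adjusted p = 0.0289), and *Alcam* rose by 1.45 (adjusted p = 5.42e-05, limma) and *Thy1* by 1.29 (adjusted p = 0.00104, limma). *Ncam2*, the paralog of *Ncam1*, fell from 476, 530.1 and 455 to 185.5, 206 and 292 (-1.12, adjusted p = 0.00469, limma). The L1 relatives differed in sign: *Chl1* had a log2 fold change of 0.75 (adjusted p = 0.00381) and *Nrcam* one of -0.41 (adjusted p = 0.101).

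Enzymes and partners of NCAM and L1 were mostly under the threshold. *St8sia2* and *St8sia4*, whose products add the polysialic acid chains of embryonic NCAM, had log2 fold changes of 0.43 and -0.08 with overlapping genotypes (adjusted p = 0.253 and 0.83, limma). *Ncan*, which encodes the L1- and NCAM-binding proteoglycan neurocan, was the 1 gene of 8 past the threshold, with a fall of 1.67 on the log2 scale (adjusted p = 0.00208, limma). Without control replicate 2, 2 genes of this list were past it.

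Skeletal muscle, which carries NCAM in the newborn, was represented unequally. The summed level of 10 muscle genes was 29523, 5387 and 21812 in the control-labelled libraries against 84212, 35443 and 273122 in the mutant-labelled. Of the 10 genes, 6 were past the threshold and higher, and with 1 library left out this number ran from 3 (without mutant replicate 3) to 8 (without control replicate 1 or mutant replicate 2). Mutant-labelled replicate 3, with the highest sum, was the highest of the mutant-labelled libraries in *Ncam1*, *Runx2*, *Sox4* and *Ucn2*, the lowest in *Gfap* and *Sox11*, and between the others in *Gap43* and *L1cam*. The part of muscle RNA in these values was not tested. Without mutant replicate 3, the log2 fold change of *Ncam1* was 0.23, that of *Sox4* 0.25, that of *Runx2* 3.196 and that of *Ucn2* 4.09.

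*Sox4* and *Sox11* encode transcription factors of the SoxC group, which act in progenitors and immature neural and glial cells. *Sox4* (GSMG0010488, chromosome 13, 28948922 to 28953699, minus strand) was at 15824, 13776 and 13810 in the control-labelled libraries against 16499, 17752 and 18721 in the mutant-labelled. All mutant-labelled values lay above the controls, by a small margin over control replicate 1. The change from 14470 ± 1173 to 17658 ± 1114 (SD, n = 3 each) was a log2 fold change of 0.29 (SE 0.09, limma adjusted p = 0.0443), with a 95% interval from 0.07 to 0.50. It was under the 2-fold limit in every setting, and its adjusted p ran from 0.00954 at equal library totals to 0.218 at equal 75th percentiles. The adjusted p was above 0.05 without control replicate 2 (0.153) or 3 (0.14) and without mutant replicate 2 (0.0905) or 3 (0.121). A gene without a symbol on the other strand overlaps *Sox4*, at 233 to 253 in the controls and 242 to 272 in mutant-labelled libraries.

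*Sox11* (GSMG0050861, chromosome 12, 27334268 to 27342720, minus strand) had values of 895, 841 and 824 in the control-labelled libraries against 983, 973 and 902 in the mutant-labelled. The mutant-labelled values lay above the controls, but replicate 3 was within 10 normalized reads of control replicate 1. With means of 853 ± 37.2 and 952 ± 43.9 (SD, n = 3 each), the log2 fold change was 0.16 (SE 0.12, limma adjusted p = 0.334) and its 95% interval ran from -0.11 to 0.43. A change of 2-fold is outside this interval. Genotypes did not overlap in 6 of the 8 tested markers, *Sox4* and *Sox11* included, with mutant-labelled values above, where 25.9% of all tested genes did (49.2% in either direction).

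Among other SOX genes, those with an adjusted p of 0.05 or less were lower in mutant-labelled libraries. Of 9 tested, none was past the threshold and higher. *Sox6*, *Sox10* and *Sox13* lay below the controls without overlap and did not reach 2-fold, with log2 fold changes of -0.84, -0.71 and -0.95 (limma adjusted p = 0.00145, 0.00874 and 0.0015). *Sox8*, named like these after its values were seen, was the 1 gene past it and lower, with a log2 fold change of -1.13, an adjusted p of 0.0438 (limma) and overlapping genotypes. No gene was past it without control replicate 1 or without mutant replicate 2 or 3, and 2 genes were past it and lower without mutant replicate 1. *Sox9*, which acts in NC cells and chondrocytes, had a log2 fold change of 0.28 with an adjusted p of 0.169.

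*Olig1* (GSMG0015295, chromosome 16, 91269267 to 91271939, plus strand) encodes a basic helix-loop-helix factor of oligodendrocytes that is turned on in repair SCs. It had 2 reads in control-labelled replicate 2, a value of 1.89, and none in the other 5 libraries. A count of 0 allows up to 3 reads in each, or values up to 2.18 to 3.80, so expression was not detectable at this depth and no fold change is given. *Olig2* had reads in mutant-labelled replicate 3 alone, at 3.96, and *Olig3* was at 0 in the controls and at 10.2, 7.72 and 5.93 in mutant-labelled libraries, under the minimum for the test. Among the 13 other tested genes of that list, which are helix-loop-helix and Id genes and the homeobox gene *Nkx2-2*, 3 were past the threshold and higher and 1 lower. Of all tested genes, 13.9% were past it and higher and 10.4% lower. *Hes1*, a Notch target, rose by 2.42 on the log2 scale (adjusted p = 0.000199, limma) and *Hey2* was past the threshold with overlapping genotypes. *Id3*, an inhibitor of these factors, rose from 1820, 1585 and 1201 to 2987, 3402 and 2753 (adjusted p = 0.00202, limma), and *Hes6* fell by 1.25 (adjusted p = 0.0498). Without control replicate 3 or without mutant replicate 2, only 1 gene was past the threshold and higher.

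**Figure D3:**
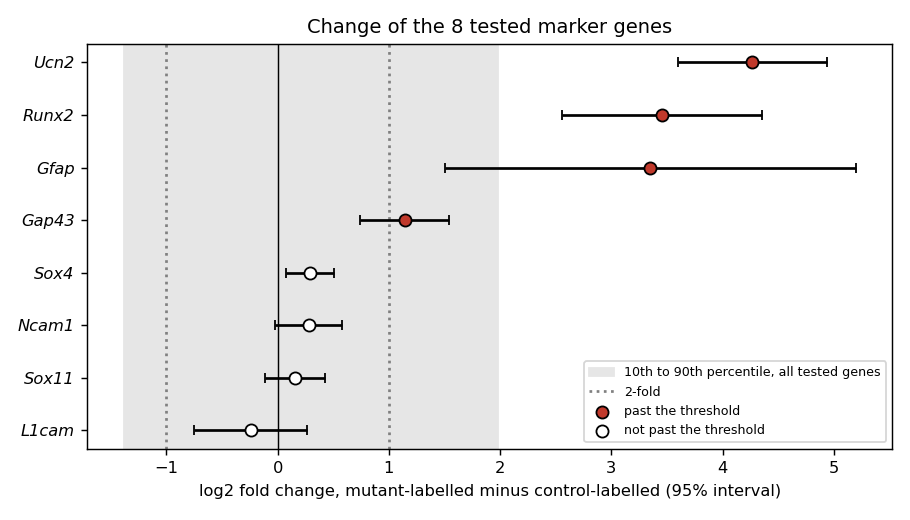
Log2 fold change from limma (x axis, mutant-labelled minus control-labelled) of the 8 tested marker genes, with 95% intervals. Filled points are past the threshold, dotted lines mark 2-fold and the grey band spans the 10th to 90th percentile of all tested genes, from -1.38 to 1.98. *Ucn2*, *Runx2* and *Gfap* lie outside the band and the other 5 genes inside it.

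The markers were also set against *Sox10*, a transcription factor of all SC stages, in the same library. *Sox10* itself was lower in mutant-labelled libraries, so this ratio describes the mixture and not a level per cell, and it is not corrected for gene length. *Ncam1* was at 49.2, 67.7 and 79.9% of the *Sox10* value in the control-labelled libraries and at 94, 156 and 143% in mutant-labelled ones. *L1cam* was at 12.4, 16.2 and 13.1% and at 20.1, 17.1 and 20.3%. *Sox4* was at 125, 118 and 126% and at 180, 304 and 274%, and *Sox11* at 7.09, 7.18 and 7.54% and at 10.7, 16.7 and 13.2%. All 8 markers were higher relative to *Sox10* in all 3 mutant-labelled libraries than in the highest control, with differences of mean log2 ratios from 0.47 (*L1cam*) to 5.01 (*Ucn2*). An exact two-sided permutation test gave p = 0.1 for each of the 8, the smallest value that 3 libraries against 3 allow. The ratio to *Sox10* was likewise above all controls in every mutant-labelled library for 49.7% of the 22233 tested genes with reads in every library.

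**Figure D4:**
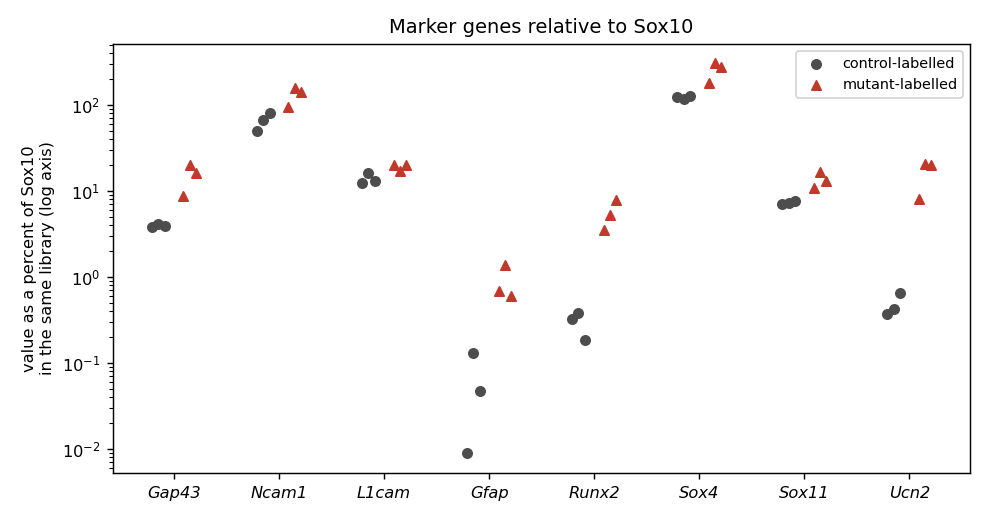
Value of each marker as a percent of the *Sox10* value in the same library (y axis, log scale), with control-labelled libraries as circles and mutant-labelled ones as triangles, replicates 1 to 3 from left to right. All mutant-labelled points lie above the controls of the same gene, with the narrowest gap in *L1cam* (16.2 to 17.1%).

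Other genes of the immature stage did not share a direction. Of 13 tested, 3 were past the threshold and higher (13.9% of all tested genes) and 2 lower (10.4%), and the median log2 fold change was -0.05. *Tfap2a*, a factor of NC and SC precursors, rose by 4.31, and *Pax3*, a factor of immature SCs, by 2.46 on the log2 scale (adjusted p = 0.000337 and 0.00572, limma). The paper counts *Pax3* and *Sox10* among genes not significantly altered in the same samples. *Sox10* was under 2-fold here, whereas the rise of *Pax3* departs from that statement. *Ednrb*, the endothelin receptor B gene, fell from 47959, 45575 and 53296 to 9635, 12690 and 9645 (-2.21, adjusted p = 1.12e-05, limma). *Fabp7*, a marker of SC precursors, had control values of 67.7, 66.1 and 38 against mutant-labelled values of 8.73, 19.3 and 33.6, and was past the threshold and lower (-1.57, limma adjusted p = 0.0709). *Ngfr*, the p75 neurotrophin receptor gene that immature, non-myelinating and repair SCs express, had values of 6103, 5805 and 6500 and of 6675, 5641 and 6088. Its log2 fold change was 0.00 (SE 0.10, limma adjusted p = 0.989). The number of lower genes was 1 without control replicate 1 or 2 or without mutant replicate 1 or 2, and 3 without control replicate 3.

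Other repair genes were higher almost throughout. Of 20 tested, 18 were past the threshold and higher (13.9% of all tested genes) and 1 lower (10.4%), and the median log2 fold change was 3.69. *Shh*, *Gdnf*, *Artn*, *Fgf5*, *Btc*, *Wif1* and *Lgals3* among them are genes the study picked on these samples, so the count is not independent evidence of the direction. *Il6*, a cytokine gene, was at 9.99, 0 and 0 and rose to 508, 479 and 412 (log2 fold change 7.71, adjusted p = 0.000381, limma), and *Gdf15*, a stress-induced ligand gene, rose from 13.3, 35.9 and 21.5 to 2592, 2566 and 1666 (6.61, adjusted p = 9.69e-06, limma). *Lif*, *Btc* and *Bdnf*, named after their values were seen as ligands of SCs and neurons like *Ucn2*, rose by 4.61, 4.65 and 3.74 on the log2 scale. *Igfbp2*, the gene of a binding protein of insulin-like growth factors, fell by 1.26 (adjusted p = 0.0108, limma). The fall of *Igfbp2* was not past the threshold without mutant replicate 3.

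**Figure D5:**
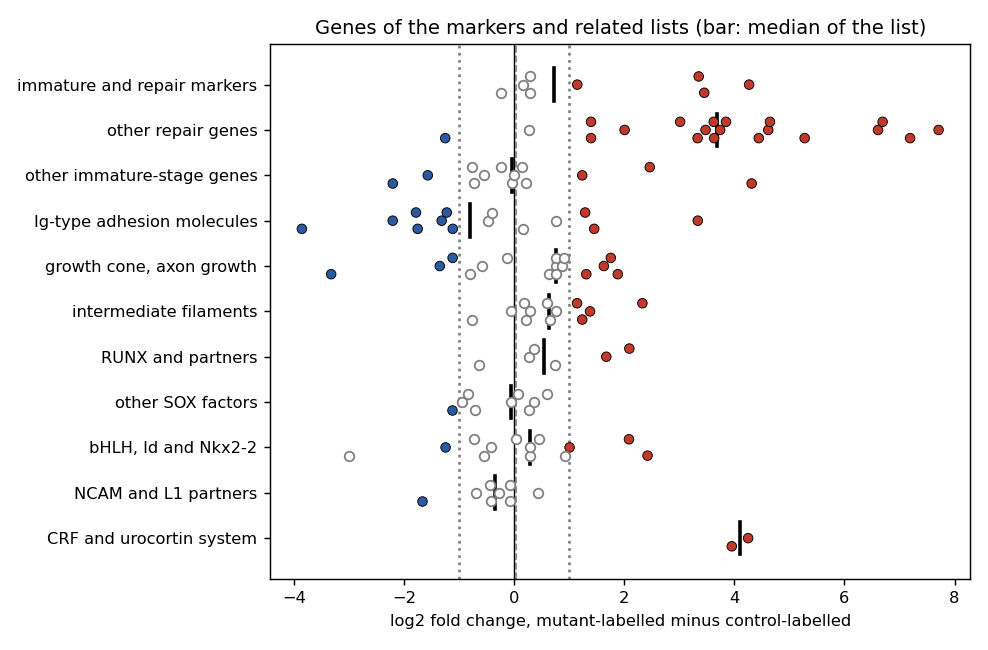
Log2 fold change (x axis, mutant-labelled minus control-labelled) of each tested gene in the marker set and in 10 related gene lists, with red points past the threshold and higher, blue points past it and lower, and white points not past it. Thick bars are list medians, dotted lines mark 2-fold and the dashed line is the median of all genes (0.03). Repair genes lie mostly to the right (median 3.69), whereas Ig-type adhesion molecules lean to the left (median -0.80).

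The patterns most like each marker over the 6 libraries were found by the Pearson correlation of log2(value + 1) among tested genes with a symbol, as a description over 6 libraries of 2 genotypes. *Ucn2* was closest to *Akr1b8* (0.9996) and *Plch1* (0.999), and *Runx2* to *Ly6c1* (0.999) and *Syne1* (0.997). For *Gap43* they were *Pqlc3* (0.997) and *Dnah6* (0.996), and for *Gfap* *Lhfp* (0.995) and *Tsfm* (0.993). *Sox4* was closest to *Slc38a4* (0.996) and *Rbm20* (0.995), and *Sox11* to *Midn* (0.997) and *Dcc* (0.996). *Ncam1* was closest to *Spred2* (0.995) and *Odc1* (0.995). *L1cam* had the least close neighbors, *Dnajb14* (0.988) and *Map3k7* (0.98). Correlations over 0.99 were found with 122 genes for *Ucn2* and 75 for *Runx2*, and with none for *L1cam*.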

How the data were processed

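RNA of P4 sciatic nerves from 3 control and 3 mutant animals was analysed. The authors sequenced oriented poly-A cDNA, mapped reads to mm10 with STAR 2.4.0, counted those on constitutive regions of FAST DB genes and divided the counts by DESeq2 size factors. The deposited values are this normalized signal per gene, without an expression filter. In each library 100% of values fell on steps of 1 read (0.727 to 1.27 in value, tolerance 0.02 reads), and these steps gave the reads on genes and the floor of 3 reads. Floors cover counting error only.

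log2(value + 1) was fitted with limma 3.58.1 (eBayes with trend, R 4.3.3) over 25802 genes, and the fit was tested on simulated data. The threshold is that of the paper's methods. The members and lists were chosen with earlier results of these data known, so the tests on them are not independent of that knowledge. Genes named are the 9 members, their close relatives, and up to 4 genes of each list with the largest change past the threshold and separated genotypes, with up to 2 of opposite sign. Alternatives were other pseudocounts, filters and scalings, eBayes without trend, adjusted p-values, a replicate block and leaving out each library. No pairing of animals was assumed, so the main fit was not paired. Python 3.11.15 with scipy 1.17.1 and matplotlib 3.10.9 was also used. Some genes of the lists are not reported here.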

Additional observations from a re-analysis of the deposited data

How the results depend on the processing

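The 4 markers past the threshold stayed past it, and the other 4 tested markers stayed under it, in the 9 other settings of the fit, with an adjusted p at or under 0.05 and without each of the 6 libraries in turn, and no log2 fold change changed sign. The count over all genes ran from 4706 (minimum mean of 50) to 6892 (no filter), against 6251. Rescaling to the same total moved the median of all genes from 0.03 to 0.20, and to the same 75th percentile to -0.09, and the values of *Sox4* (0.45 and 0.17), *Sox11* (0.32 and 0.04), *Ncam1* (0.44 and 0.16) and *L1cam* (-0.08 and -0.36) moved with it. At the same total, *Ncam1* had an adjusted p of 0.0202. The replicate number as a block gave 4 markers and 6149 genes past the threshold. Deviations of same-numbered libraries correlated by -0.06 to 0.01, which cannot show whether animals shared a litter. Count-based tests of reads were not run, since 1 library, in which 1 read had a value of 0.989, did not meet the criterion set for recovered reads, although its values fell on whole steps. Depth limits *Olig1* and the size of the change in *Gfap*.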
